A study of Rubus occidentalis with 14 samples.

Results

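A set of 44 genes shared a course over 5 sampled stages of black raspberry (Rubus occidentalis) fruit. In the deposited normalised counts, their means were higher at the first and the last stage than in the 3 between. After scaling to equal total reads, 22 of the 44 kept a stage 5 mean above all 3 middle means. The genes were picked from a table of 33253 gene identifiers by their stage means alone. A member needed stage means of 100 normalised counts or more in stage 1 and stage 5 alike. On the scale log2(mean + 10) it had to drop by more than 1 from stage 1 to stage 2, and stages 3 and 4 could exceed stage 2 by no more than 0.3. Its score, the lower of stages 1 and 5 minus the highest of stages 2, 3 and 4, had to exceed 0.3. Of 9738 genes with the required level in both outer stages, 243 met the conditions on the drop and the middle stages, and 44 of these (0.452% of the 9738) also had the score. The list was open to 100 genes, so the score set its length.

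The samples were 14 poly(A) RNA libraries of whole fruit from 1 breeding selection, NC 349, with no treatment other than the stage. There were 3 libraries per stage except for stage 4, which had 2. The labels number the stages and carry the letters Gr, Re, So, Tu and Bl in the library names for stages 1 to 5, without giving the colour or age of the fruit. They do not say which plants or fruits went into which replicate, so p-values measure the spread between libraries, which may be technical in part. In every stage with 3 libraries, replicates 2 and 3 have 1 title code between them and replicate 1 has another, so the 3 may not be equally separate; what the code stands for is not stated. Libraries held 7576338 to 39938265 reads, and 1 read was worth 0.319 to 2.76 normalised counts.

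A black raspberry is an aggregate of small drupelets, each a layer of flesh and skin around a hard pit with a seed. Young fruit is green, photosynthesises and grows. Ripening fruit loses chlorophyll, softens, gathers sugars and fills with anthocyanins, the pigments that turn it dark. RNA of whole fruit mixes flesh, skin, pit and seed, so fewer cells of a type and less RNA per cell cannot be told apart. The files pair no names with the identifiers, so roles of the 44 genes are not given and no pathway list could be matched. For the same reason it could not be checked against marker genes whether the outer stages are green and ripe fruit, and the genes are described by stage number.

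On the deposited scale the median over the set was lowest in stage 3. The median of the members' stage means was 506, 155, 112, 136 and 311 normalised counts from stage 1 to stage 5. Within each library, the median of the members' log2 differences from their own stage 1 means was -0.06 ± 0.02 in stage 1, -1.59 ± 0.16 in stage 2 and -1.96 ± 0.02 in stage 3 (SD, n = 3 each). Stage 4 stood at -1.68 ± 0.07 (n = 2) and stage 5 at -0.58 ± 0.13 (n = 3). The 9738 genes at the same minimum level moved gently the other way, with medians of 0.11, 0.28, 0.34 and 0.40 from stage 2 to stage 5. These values chose the members and are a description only.

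**Figure D1:**
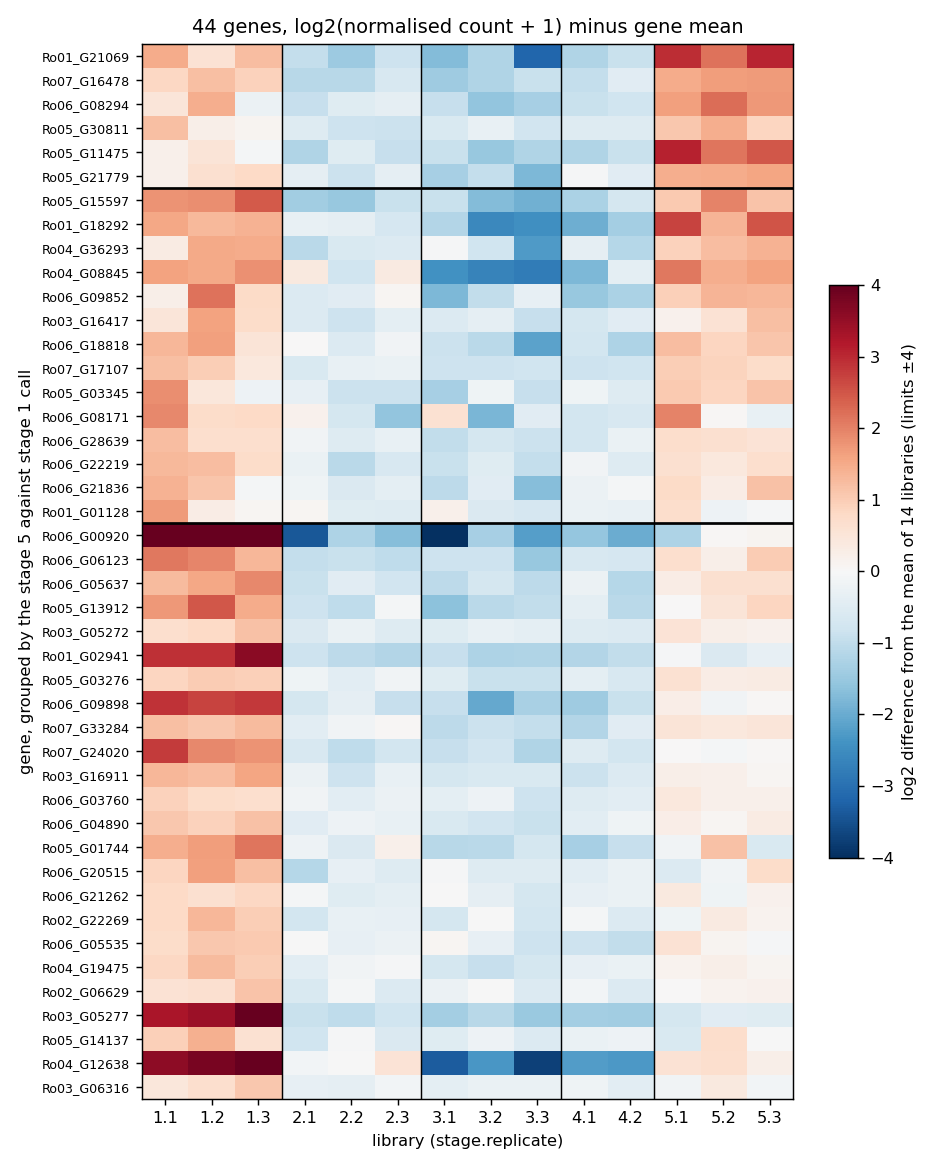
Each cell shows log2(normalised count + 1) of 1 gene (row) in 1 library (column, stage.replicate) minus that gene's mean over the 14 libraries, from blue (below the mean) to red (above), with colours saturating at ±4. Rows are grouped, from the top, into 6 genes called higher in stage 5 than in stage 1, 14 not called and 24 called lower. Stages 2, 3 and 4 are mostly blue in all groups, and stage 5 is palest in the bottom group.

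The highest score belonged to Ro05_G15597, at 2.26 on the log2 scale. This gene had 450, 469 and 714 normalised counts in the stage 1 libraries, 49.4, 45.1 and 69.0 in stage 2, 70.1, 38.4 and 33.8 in stage 3, 53.2 and 80.0 in stage 4, and 271, 514 and 287 in stage 5. All 6 libraries of stages 1 and 5 lay far above all 8 libraries between them. Its stage 1 mean was 8.17-fold and its stage 5 mean 5.36-fold the highest mean of stages 2 to 4.

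Ro01_G21069, with a score of 2.03, overshot its starting level. It had 351, 187 and 293 normalised counts in stage 1, 63.5, 45.1 and 70.3 in stage 2, 36.8, 53.8 and 13.1 in stage 3, 53.2 and 67.4 in stage 4, and 967, 572 and 1045 in stage 5. The stage 5 libraries were all above the stage 1 libraries, and the lowest value of the gene rested on 7 reads. Its stage 5 mean was 14.3-fold the highest middle mean, the largest such ratio among the 44 members.

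Ro01_G18292, with a score of 1.71, continued to fall after stage 2. It had 283, 238 and 252 normalised counts in stage 1, 79.0, 75.2 and 60.4 in stage 2, 42.6, 15.4 and 16.9 in stage 3, 24.2 and 37.1 in stage 4, and 632, 246 and 556 in stage 5. The 5 libraries of stages 3 and 4 were all below the 3 of stage 2, and 1 stage 5 library lay near the stage 1 level while the other 2 were above it. Ro04_G36293, with a score of 1.65, was flat between the ends. It had 73.3, 168 and 167 normalised counts in stage 1, 27.0, 38.4 and 39.6 in stage 2, 57.2, 33.3 and 11.3 in stage 3, 46.0 and 26.1 in stage 4, and 112, 138 and 154 in stage 5. This gene had the lowest ceiling of the set over the middle stages, and 1 of its stage 3 libraries held 6 reads.

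**Figure D2:**
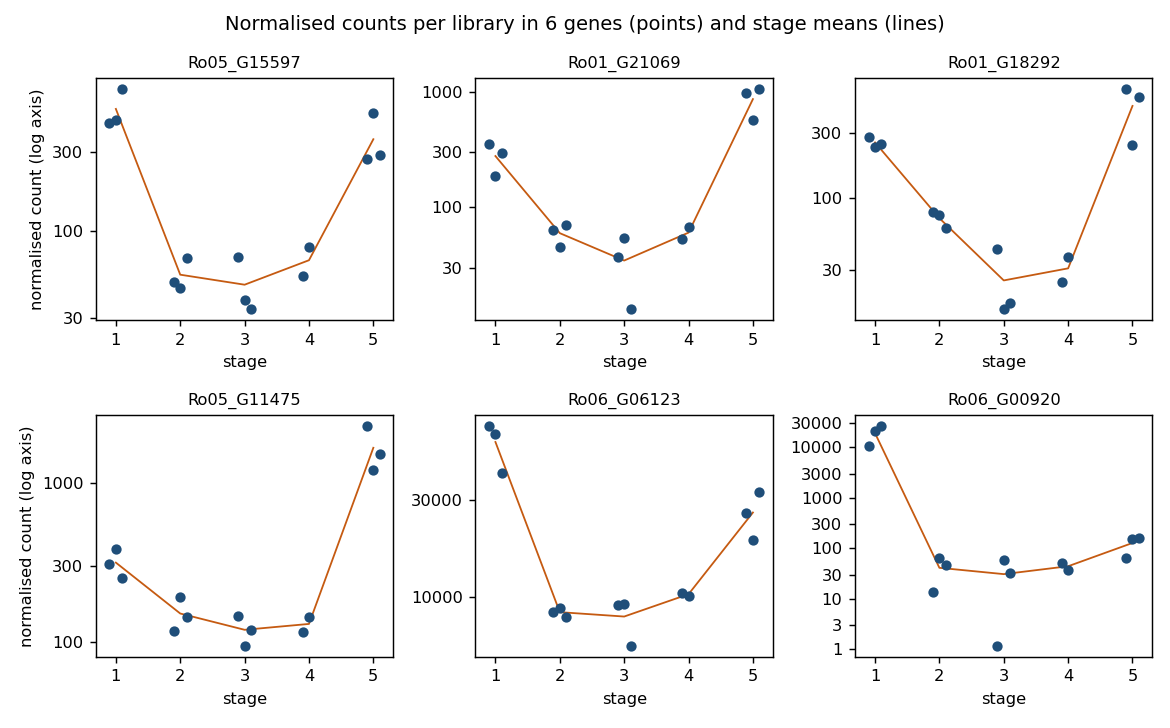
Points are normalised counts per library on a log axis and lines join the stage means, for the 3 highest scores (upper row), the member with the largest called rise from stage 1 to stage 5, the most abundant member and the member with the largest fall (lower row). Each gene is lowest in the middle stages, and the stage 5 level runs from far above stage 1 (Ro05_G11475) to far below it (Ro06_G00920).

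The members covered a wide range of abundance. Ro06_G06123 was the most abundant, at 69352, 63510 and 40911 normalised counts in the stage 1 libraries, 8428, 8789 and 7961 in stage 2, 9052, 9176 and 5729 in stage 3, 10479 and 10106 in stage 4, and 25972, 19141 and 32923 in stage 5. Its outer and middle libraries did not overlap. Next by the lower of the 2 outer means was Ro07_G16478, with 833, 1082 and 895 in stage 1, 219, 219 and 303 in stage 2, 177, 205 and 257 in stage 3, 244 and 344 in stage 4, and 1312, 1504 and 1531 in stage 5. Ro07_G16478 thus recovered fully on this scale, and Ro06_G06123 in part.

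Together the 44 genes took 1.04% ± 0.04 of all reads in stage 1, 0.120% ± 0.005 in stage 2 and 0.0689% ± 0.0104 in stage 3 (SD, n = 3 each). In stage 4 their share was 0.0715% ± 0.0023 (n = 2), and stage 5 had 0.160% ± 0.027 (n = 3). Without Ro06_G06123 the shares were 0.530% ± 0.129, 0.0583% ± 0.0051, 0.0305% ± 0.0021, 0.0291% ± 0.0004 and 0.0659% ± 0.0021 from stage 1 to stage 5. As a share of reads, which uses no size factor, the summed level at stage 5 was a little above that of stage 2 and further above that of stages 3 and 4.

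How far the members recovered in stage 5 depended on the scaling. The sum of normalised counts averaged 27552453 in stage 5 and 11371990 in stage 1, so scaling every library to the same total lowers stage 5 values relative to the early stages. On log2(mean + 10), the median over all 19234 tested genes of stage 5 minus stage 1 was -0.25 as deposited, -1.37 with equal total reads, -0.49 with upper-quartile scaling and 0.04 after quantile normalization. With equal total reads all 44 members had a stage 5 mean above that of stage 4 and 42 above that of stage 3, but 22 had one above that of stage 2. All 44 kept a stage 5 mean above all 3 middle means with upper-quartile scaling and after quantile normalization. Applying the rule afresh chose 13 of the 44 again with equal total reads, 17 after quantile normalization and 30 with upper-quartile scaling, in lists of 41, 42 and 39 genes. After quantile normalization 20 of the 44 stayed within the limits on stages 3 and 4.

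**Figure D3:**
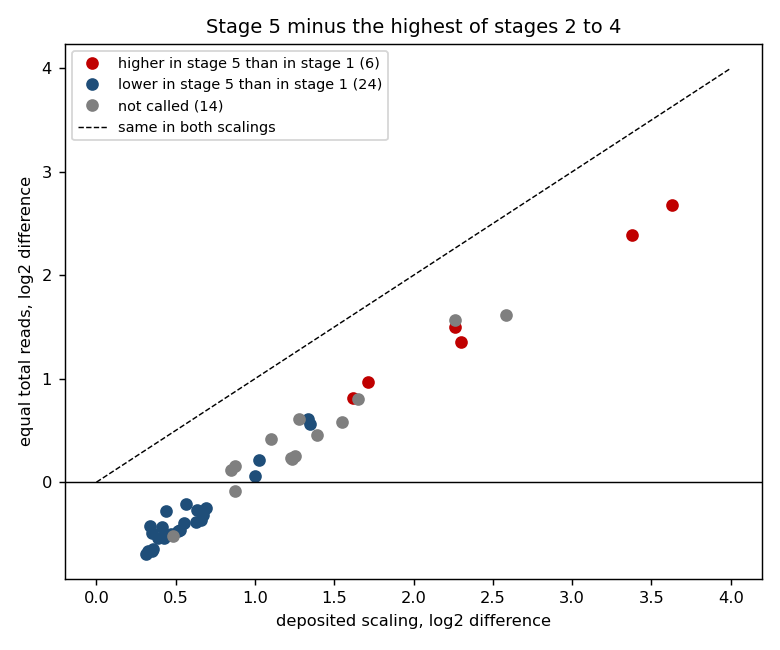
Each point is 1 of the 44 genes, with stage 5 minus the highest of stages 2, 3 and 4 on log2(mean + 10), as deposited (x axis) and after scaling to equal total reads (y axis). All points lie below the dashed line of equality. With equal total reads 22 genes are above 0, and these include all 6 called higher in stage 5 than in stage 1.

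The drop into stage 2 and the rise out of stage 4 were steps that the rule itself asked for, so their counts carry no support for the pattern. By limma, 43 of 44 members were lower in stage 2 than in stage 1 (adjusted p below 0.05), as were 24.3% of all tested genes. The rise from stage 4 to stage 5 was called in 30 members, against 7.66% of tested genes. From stage 2 to stage 3 the test called 11 members lower, against 28.9% of tested genes. The ratio of the stage 1 mean to the stage 2 mean ran from 2.03 to 465 with a median of 3.01, and that of the stage 5 mean to the stage 4 mean from 1.28 to 15.6 with a median of 2.32.

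In 33 members every library of stages 1 and 5 lay above every library of stages 2 to 4, as in 2.03% of the 9738 genes at the same minimum level. The rule asked for outer means above the middle means in these same libraries, so the contrast carries no support for the pattern. All stage 1 libraries were above all middle libraries in 42 members, and all stage 5 libraries in 34. No share over all genes was taken for these 2 counts. The rule asked for a larger step out of stage 1 than into stage 5, so they are not compared. Of the 11 members with overlap, the lowest outer library belonged to stage 5 in 10 and to stage 1 in 1. The highest middle library was stage 3 replicate 1 in 5 of these 11. Ro06_G08171, the member with the second largest residual SD of the fit, was one of them. It had 326, 141 and 148 normalised counts in stage 1, 94.9, 51.8 and 27.7 in stage 2, 130, 23.1 and 62.0 in stage 3, 50.8 and 53.9 in stage 4, and 339, 88.5 and 69.5 in stage 5. Replicate 1 was high in each of stages 1, 2, 3 and 5 for this gene.

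Libraries that took no part in the rule's choice of genes were then described. They kept the deposited scaling. When replicate 2 or 3 of stages 1, 2, 3 or 5 was left out, the library with the same title code stayed in the choice. A left-out library may thus not be fully separate. Each library was left out in turn, the rule was applied to the other 13, and the left-out library was set against the means of the rest. Those means had chosen the genes, so part of each gap was set in advance. The shares below are a description and carry no support for the pattern. The rule then chose 35 to 49 genes, of which 32 to 44 were among the 44. A left-out stage 1 library lay above the highest middle mean in all the chosen genes, 41 to 44 of them, against 24.1% to 25.8% of all genes at the minimum level. A left-out library of stages 2 to 4 lay below both outer means in 95.6% to 100% of the chosen genes, against 21.5% to 28.1% of all. For left-out stage 5 libraries the chosen genes were above the highest middle mean in 40 of 44 (replicate 1), 41 of 45 (replicate 2) and 43 of 49 (replicate 3), against 39.4% to 40.9% of all. The median gap of the chosen genes was 1.27, 1.51 and 1.26 on the log2 scale in the left-out stage 1 replicates 1, 2 and 3, and 0.77, 0.58 and 0.61 in those of stage 5. The rule asked for a larger step out of stage 1 than into stage 5, so gaps of the 2 stages are not compared.

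**Figure D4:**
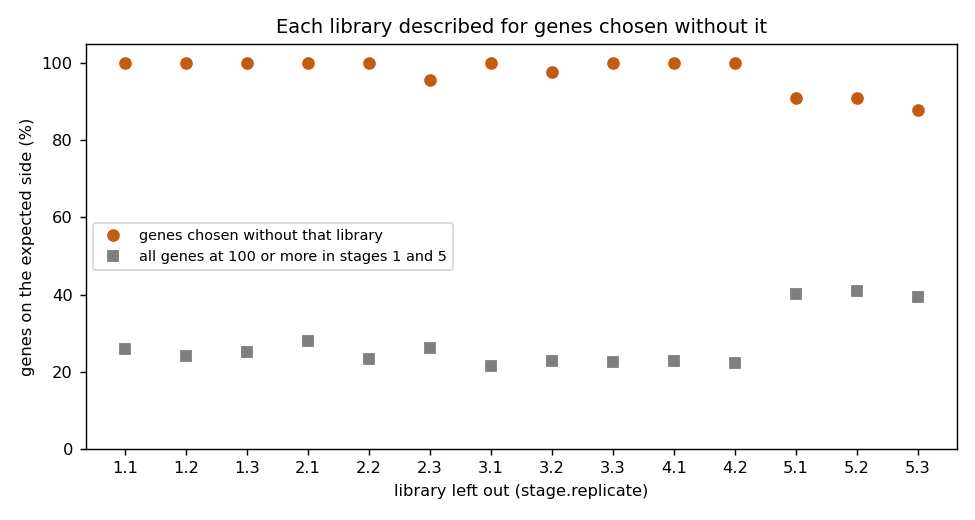
For each library (stage.replicate, x axis) left out of the choice, orange points give the percentage of the genes chosen from the other 13 libraries for which that library fell on the expected side, above the highest middle mean for stages 1 and 5 and below both outer means for stages 2 to 4. Grey squares give the same percentage over all genes with means of at least 100 in stages 1 and 5. The lowest orange points, 87.8% to 91.1%, are the 3 stage 5 libraries. The means used for the comparison had also chosen the genes, so the distance between orange and grey is a description only.

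Of the 44 genes, 14 were chosen in every list that left out 1 library, Ro01_G21069 and Ro01_G18292 among them. Leaving out stage 2 replicate 2 chose 32 of the 44 again, the fewest. The title codes of stage 3 replicates 2 and 3 and stage 4 replicate 2 open with the letters TH and those of the other 11 libraries with YH. These 11 libraries alone chose 29 of the 44, in a list of 38, with stage 4 then resting on 1 library. The 10 libraries whose names do not end in br1 also chose 29, in a list of 43.

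The question of whether stage 5 returned to the stage 1 level was tested with limma on log2(normalised count + 1), with p-values adjusted over all 19234 tested genes. All 44 members passed the filter on low values. Stage 5 was higher than stage 1 in 6 members (13.6%) and lower in 24 (54.5%), and 14 were not called. Of all tested genes 33.4% were higher and 44.8% lower, and of the 9738 genes at the minimum level 51.0% were higher and 23.9% lower. With equal total reads 1 member was higher and 38 were lower, where 11.6% of all tested genes were higher and 73.2% lower. The 3 stage 5 libraries were all above the 3 of stage 1 in 5 members and all below them in 24, as in 33.4% and 45.5% of tested genes. The median log2 change of stage 5 over stage 1 was -0.60 over the members and -0.30 over all tested genes. The rule did not set the order of stages 1 and 5, but it asked for a drop of more than 1 out of stage 1 and a score of only 0.3 into stage 5, so the balance of the 2 directions is not independent of how the genes were chosen.

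**Figure D5:**
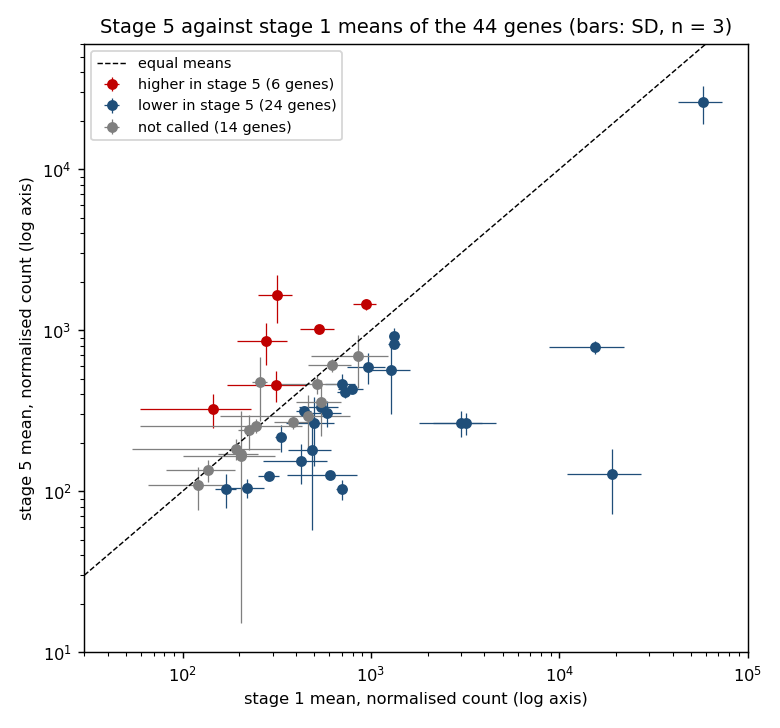
Stage 5 means (y axis) against stage 1 means (x axis) of the 44 genes in normalised counts on log axes, with bars of 1 SD (n = 3 libraries each) and the line of equal means dashed. Colours give the limma call of stage 5 against stage 1. The 6 genes called higher in stage 5 lie above the line, and 4 genes far to the right of it had stage 1 means over 10 times their stage 5 means.

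The 6 members that were higher in stage 5 rose by 0.62 to 2.36 on the log2 scale. Ro05_G11475 rose the most, with 2277, 1203 and 1513 normalised counts in the stage 5 libraries and 309, 384 and 254 in the stage 1 libraries. Its log2 change was 2.36 ± 0.26 (SE, limma adjusted p = 1.97e-06), and 1.09 with equal total reads. It stood at 151 ± 37.8 in stage 2, 119 ± 25.3 in stage 3 (SD, n = 3 each) and 130 ± 19.7 in stage 4 (n = 2), so the early drop was modest and most of its change came between stage 4 and stage 5. Ro01_G21069, whose library values are given above, rose by 1.63 ± 0.43 (adjusted p = 0.00329). With equal total reads its change was 0.36 and no longer called. Ro07_G16478 was also higher in stage 5, by 0.63 ± 0.18 (adjusted p = 0.00645). Its change was -0.64 with equal total reads, where it was called lower, and 0.35 and 0.03 with upper-quartile scaling and quantile normalization, where it was not called. All 6 genes of this group were chosen again by the rule with equal total reads. The group was defined by high stage 5 values, at 3.21-fold to 14.3-fold the highest middle mean. That scaling mainly lowers stage 5 relative to the deposited scale, so the repeat choice is a description only.

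The 24 members that were lower in stage 5 had log2 changes of -0.49 to -7.23, with a median of -1.01. Ro06_G00920 fell the most. It had 63.7, 155 and 163 normalised counts in the stage 5 libraries and 10353, 20528 and 26155 in the stage 1 libraries, a log2 change of -7.23 ± 0.97 (adjusted p = 1.33e-05). In the middle stages it had 13.3, 63.5 and 45.9 in stage 2, 1.17, 58.9 and 31.9 in stage 3 and 50.8 and 37.1 in stage 4. Stage 5 replicate 1 lay within 1 normalised count of the highest middle library, the 1.17 rested on 2 reads, and the residual SD of this gene was the largest of the set. Its stage 1 mean was 465-fold that of stage 2, so any return in stage 5 was small beside the initial loss. The log2 change of stage 5 over stage 4 was 1.41 ± 1.08 (SE) and was not called (limma adjusted p = 0.401).

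Ro03_G05277 had a like course at a higher level, with 702, 832 and 811 normalised counts in stage 5 and 10994, 12191 and 23048 in stage 1. Its log2 change was -4.22 ± 0.22 (adjusted p = 2.98e-09). It had 616, 565 and 655 in stage 2, 440, 528 and 402 in stage 3 and 445 and 429 in stage 4, and every stage 5 library was above all of these, with a stage 5 mean 1.28-fold that of stage 2. On log2(mean + 10), stage 5 minus stage 2 of Ro03_G05277 was 0.35 as deposited and 0.10 with upper-quartile scaling. After quantile normalization it was 0.09, and with equal total reads -0.67. Ro06_G06123, the most abundant member, was lower in stage 5 with a log2 change of -1.15 ± 0.25 (adjusted p = 0.00092), which became -2.43 with equal total reads and -3.83 after quantile normalization. In all, 12 members had stage 1 means over 2 times their stage 5 means and 4 had stage 1 means over 10 times as high. The group held 1 of the 13 genes chosen again with equal total reads. Its median stage 5 mean was 1.45-fold the highest middle mean, which leaves little room under that scaling, so this too is a description.

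The 14 members not called between stage 5 and stage 1 included 10 of the 18 with scores above 1. The score uses the lower of stages 1 and 5, so this count is not independent of the call. The median SE of the change was 0.39 in these 14, against 0.22 in the 24 called lower and 0.26 in the 6 called higher, which makes a call less likely. Ro04_G36293 differed by 0.07 ± 0.50 on the log2 scale (adjusted p = 0.905), and the 95% interval of -1.0 to 1.14 allows a 2-fold difference either way. With equal total reads its change was -1.20 and was called. Ro05_G15597 differed by -0.64 ± 0.33 (adjusted p = 0.0928, interval -1.35 to 0.08). It was called lower without stage 5 replicate 2 (-0.93), with upper-quartile scaling (-0.92) and with equal total reads (-1.91). Ro01_G18292 differed by 0.78 ± 0.40 (adjusted p = 0.0862, interval -0.07 to 1.64). It was called higher by edgeR (0.99) and DESeq2 (0.90), after quantile normalization (1.10), without stage 5 replicate 2 (1.20) and without stage 3 replicate 1 (0.78). A replicate block by library name and a term for the libraries named br1 left its change at 0.78 and also called it (adjusted p = 0.0389 and 0.0431, over all settings 0.0103 to 0.285). It stood at -0.49 with equal total reads. Ro06_G08171 differed by -0.56 ± 0.68 (adjusted p = 0.458), and by -1.26 without stage 5 replicate 1, the only high library of its stage, where it was not called, and by -1.83 with equal total reads, where it was.

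The log2 change of stage 4 over stage 3 ran from -0.55 to 1.53 in the set. Between stage 4 and stage 3, limma gave an unadjusted p below 0.05 in 6 of the 44 members. This was a like share to that of all tested genes, 2626 of 19234. After adjustment limma called 0 of the 44 members and 0.0156% of all tested genes. EdgeR also called 0 members. DESeq2, which called 1.63% of all tested genes, called 2, Ro04_G08845 and Ro05_G21779, which are named for these calls and were picked after their values were seen. Ro05_G21779 had 346 and 258 normalised counts in stage 4 and 141, 184 and 101 in stage 3, without overlap, and a limma log2 change of 1.11 ± 0.25 (adjusted p = 0.118). Limma called it without stage 3 replicate 2 (log2 change 1.31), a setting in which 1.91% of all tested genes were called. It stood at 980, 998 and 1063 in stage 5, and was one of the 6 higher there than in stage 1. Ro04_G08845 had 19.4 and 53.9 in stage 4 and 12.3, 10.2 and 9.39 in stage 3, where the last 2 values were 4 and 5 reads, and a limma log2 change of 1.53 ± 0.43 (adjusted p = 0.172). Its stage 5 mean of 239 ± 59.0 and stage 1 mean of 224 ± 27.0 (SD, n = 3 each) were close, with an interval for the log2 change of -0.76 to 0.90.

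On the deposited scale, stage 3 was nonetheless the lowest of the 3 middle means in 32 members, stage 4 in 8 and stage 2 in 4. Among the 4914 genes at the minimum level that met the same limits on stages 3 and 4, stage 3 was lowest in 27.5%, stage 4 in 54.4% and stage 2 in 18.1%. The mean log2 change of stage 4 over stage 3 was above 0 in 35 of the 44 members, against 39.7% of those 4914 genes and 49.2% of all tested genes, and its median was 0.24 in the members and -0.06 in the 4914. The score was computed from the same libraries, so these shares are a description. They hold for the deposited scale, and the order of stages 3 and 4 was not counted under the other scalings. As a share of reads, the set stood at 0.0689% in stage 3 and 0.0715% in stage 4. Without Ro06_G06123 it stood at 0.0305% and 0.0291%. The highest of a member's 3 middle means was under 1.5 times their lowest in 30 members and over 2 times in 6. The median of this ratio was 1.37 over the members and 1.54 over the 9738 genes at the minimum level. The rule limited how far stages 3 and 4 could exceed stage 2, so part of this spread was set in advance.

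Just inside the limit of the score were Ro04_G12638 (0.33) and Ro03_G06316 (0.31). Ro04_G12638 had 2211, 2602 and 4809 normalised counts in stage 1, 172, 184 and 269 in stage 2, 17.5, 35.9 and 13.1 in stage 3, 38.7 and 37.1 in stage 4, and 276, 299 and 217 in stage 5. It fell further from stage 2 to stage 3, its stage 5 libraries overlapped those of stage 2, and its rise in stage 5 was clear only against stages 3 and 4. Ro03_G06316 was shallow, with means of 966 ± 216, 476 ± 49.2, 462 ± 21.8, 464 ± 55.1 and 593 ± 128 from stage 1 to stage 5 (SD, n = 3, but 2 in stage 4). Just outside were Ro01_G14720 and Ro06_G09711, with scores of 0.298 and 0.292. Ro01_G14720 had means of 1002 ± 83.3, 397 ± 34.4, 323 ± 33.6, 352 ± 35.3 and 490 ± 71.5, and Ro06_G09711 of 338 ± 31.4, 80.8 ± 19.3, 73.1 ± 31.2, 66.5 ± 8.44 and 101 ± 44.6. The first excluded gene had all its outer libraries above all its middle ones and the last included gene did not, so the limit cut through genes of like course.

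The replicate spread differed between members. The residual SD of the fit had a median of 0.34 over the members on the log2 scale, against 0.31 over all tested genes and 0.20 over the 9738 genes, which were not limited to low levels in stages 2 to 4. It ran from 0.14 to 1.41 within the set. Of the 616 member values, 11 rested on fewer than 10 reads, in 8 genes, and none on 0.

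The identifiers of 16 members opened with Ro06, 36.4% of the set against 18.8% of the 9738 genes. Ro05 followed with 9 members (20.5% against 13.8%), and Ro02 had 2 (4.55% against 15.7%). The files do not say what the prefixes stand for. A single pair of members had numbers within 10 of each other, Ro03_G05272 and Ro03_G05277, named for this after the values were seen. Ro03_G05272 had means of 697 ± 129, 273 ± 33.3, 284 ± 15.9, 257 ± 6.13 and 464 ± 69.2 from stage 1 to stage 5 (SD, n = 3, but 2 in stage 4). Its stage 1 mean was 2.56-fold that of stage 2, beside 25.2-fold for Ro03_G05277.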

How the data were processed

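Per the submitters' processing notes, reads were handled with Trimmomatic, HISAT2 and DESeq2. Tool versions, genome build, annotation and read counter are in none of the sources used here. The deposited table holds a normalised signal: read counts that the authors divided by a size factor for each library. In each library 100% of values above 0 were whole multiples of the smallest one, to within 0.01 read, so reads could be recovered. Per the labels' protocols, a stranded poly(A) kit was used on RNA above an integrity limit.

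The members, lists and tests were chosen with earlier results of these data known. Genes with at least 10 normalised counts in 2 libraries (19234) were tested with limma 3.58.1 in R 4.3.3 on log2(normalised count + 1), with a variance trend and all 14 libraries, and adjusted by Benjamini-Hochberg, with calls below 0.05. Fold changes on this scale understate those of low genes. The model was also run on simulated data with known size factors, which cannot speak to the choice of scaling. Python 3.11.15 applied the rule.

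Genes named were those with the 4 highest scores, the 2 highest levels, the 2 lowest middle levels, the 2 largest called rises and falls from stage 1 to stage 5 without overlap, members called between stages 3 and 4, the 2 largest residual SDs, and 2 genes on each side of the score limit. Others are said to be picked later. Gene lists by name could not be matched, and no sequence is shown.

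Alternatives were other pseudocounts, filters, scalings, prior, batch terms and replicate blocks, the compared stages alone, each library left out, edgeR 4.0.16 and DESeq2 1.42.0 on recovered reads, and other settings of the rule. The subsets by title code and library name and the block by library name were added after seeing the data. Intervals cover the spread between libraries.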

Additional observations from a re-analysis of the deposited data

How the results depend on the processing

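The calls of stage 5 against stage 1 depended mainly on the scaling. Against 6 members higher and 24 lower as deposited, equal total reads gave 1 and 38, with 11.6% and 73.2% of all tested genes called in these directions. The other settings gave 4 to 7 higher and 21 to 27 lower, and leaving out single libraries 5 to 7 and 22 to 25. The replicate block gave 6 and 25. Same-numbered libraries of stages 5 and 1 deviated together at r = 0.16, 0.08 and -0.07 across genes for numbers 1, 2 and 3, so the numbers were not taken to pair them. The median log2 difference of stage 5 minus stage 1 over the members, -0.60 as deposited, was -1.88 with equal total reads and -0.88 with upper-quartile scaling, and -0.71 to -0.51 without single libraries. It was -0.61 within the libraries named br1 and -0.69 within the others. Between stages 4 and 3, DESeq2 called 2 members, leaving out single libraries gave 0 to 1, and the remaining settings gave 0.

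Of the 44 members, the rule chose 28 again with stage medians, 17 after quantile normalization, 13 with equal total reads, 29 from the YH libraries and 29 from those not named br1. It chose 32 to 44 without single libraries, and 30 to 44 with upper-quartile scaling, other pseudocounts or other minimum levels. Equal total reads reversed the called change of Ro07_G16478, from 0.63 to -0.64. Ro04_G36293 went from 0.07, not called, to -1.20, which was called. The estimate for Ro01_G18292 also changed sign, from 0.78 to -0.49, with neither called. Low values in shallow libraries rest on few reads, which limits what can be said of the depth of the trough. Equal total reads sets stage 5 lower only relative to the deposited scaling, and which scaling is right was not tested. The cause of the pattern was not tested either.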
